A study of Mus musculus with 8 samples.

Results

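The potassium channel genes of the mouse hippocampus were examined in arrays of 3 × Tg-AD mice fed with or without rosmarinic acid (RA), a plant polyphenol. They were chosen by name: every probe set that names a single gene whose symbol starts with Kcn was taken, without Kcne2, Kcnj8 and Kcnj13. This gave 164 probe sets of 81 genes, among 45037 probe sets and 18193 named genes on the array. A probe set is a group of short probes against the same transcript. Most of the genes encode pore-forming subunits, and the name also covers auxiliary subunits (Kcnab, Kcne, Kcnip and Kcnmb) and a few noncoding transcripts such as Kcnq1ot1.

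All mice were male and carried the transgenes of the 3 × Tg-AD strain, which express mutant amyloid precursor protein, tau and presenilin 1, and no mice without these transgenes were compared. The control group received the AIN-93G diet, and the RA group received this diet with 0.5% RA for 8 months, until both groups were 10 months old. Hippocampal RNA was profiled on 4 control arrays (control 1 to control 4) and 4 RA arrays (RA 1 to RA 4) from Affymetrix, and the values are log2 summaries. The methods name 4 mice of average weight per group and also mention pooled RNA, so p-values measure only the spread between these arrays, which may be technical. The number of arrays limits the precision of every value.

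Potassium channels let potassium ions leave neurons and so set the resting potential, end each action potential and limit how often a neuron fires. Voltage-gated members open on depolarisation, inward rectifiers and leak channels act near rest, and other members open with intracellular calcium or sodium. In hippocampal pyramidal neurons the A-type current of Kcnd channels dampens signals that travel along dendrites, and the M current of Kcnq channels restrains repeated firing.

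The authors summarised the probes by FARMS, a factor analysis, in which probes without a common signal yield almost the same value on every array. A probe set was therefore called measured where the SD over the 8 arrays was above 0.01 on the log2 scale. Of the 164 potassium channel probe sets, 40 were measured (24.4%), against 9.76% of all 34945 probe sets that name 1 gene. They stand for 25 genes, and 56 genes had no measured probe set. The limit fell in a wide gap, since the measured probe set with the lowest SD, that of Kcna6, had an SD of 0.0127 and the highest SD among the 124 unmeasured ones was 0.00176. Such a value is no evidence of equal transcript levels in the 2 diets.

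**Figure D1:**
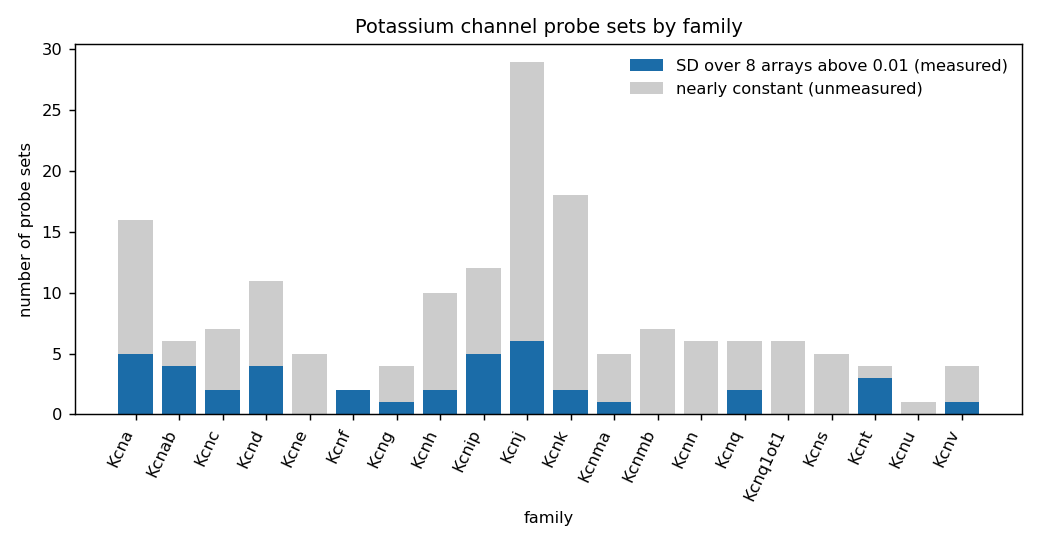
Number of potassium channel probe sets (y axis) in each gene family (x axis). Blue bars count the probe sets with an SD over 8 arrays above 0.01 and grey bars the nearly constant ones, which make up most of the Kcnj and Kcnk families and all of Kcne, Kcnmb, Kcnn, Kcnq1ot1, Kcns and Kcnu.

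The families differed in how much of them could be read. Of the inward rectifiers (Kcnj), 6 of 29 probe sets were measured, covering Kcnj3, Kcnj4, Kcnj9 and Kcnj16. Of the leak channels (Kcnk), which hold the membrane near rest, 2 of 18 were measured, and both name Kcnk1. None was measured for the Kcnn genes, which encode small-conductance calcium-activated channels, for the Kcnmb and Kcne auxiliary subunits, for the silent subunits Kcns1, Kcns2 and Kcns3, or for Kcnu1 and Kcnq1ot1. Among the Kcna and Kcnc genes, Kcna2, Kcna3, Kcna4, Kcna7, Kcnc1 and Kcnc2 were nearly constant, and the Kcnb genes were not analysed here. In 13 genes a measured probe set stood beside nearly constant ones, 26 in number, so a nearly constant probe set does not speak for its gene.

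The rank product was run over the whole table: it ranks probe sets by each of the 16 pairwise differences, RA array minus control array, and estimates a proportion of false positives from 100 permutations within arrays. Calls were made where this proportion was under 0.05. Across all probe sets 0.913% were called higher in the RA group and 0.568% lower, which is 10.9% and 6.81% of the 3758 measured ones. Of the 40 measured potassium channel probe sets, none was called higher and 1 was called lower, that of Kcnt2. None of the 124 unmeasured ones was called. limma, which sets a difference against the spread within groups, called 0% of all probe sets at an adjusted p under 0.05, and the lowest adjusted p among the measured potassium channel probe sets was 0.490. At an unadjusted limma p under 0.05 there was 1 measured potassium channel probe set (Kcnt2) and there were 11 of the 124 unmeasured ones, while 9.66% of all measured and 10.2% of all unmeasured probe sets passed.

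The measured log2 fold changes, RA minus control, ran from -0.35 (Kcnt2) to 0.16 (Kcna5), and 32 of the 40 were smaller than 0.1 in size. The median was 0.034, against 0.069 over all measured probe sets. In 27 of 40 (67.5%) the RA mean was the higher one, against 73.1% of all measured probe sets. The difference was smaller than the SD within groups in 36 of 40, and it was larger in 4 (10.0%), against 23.9% of all measured probe sets. In no measured potassium channel probe set did every RA array lie above or below every control array. Across all measured probe sets this was so in 2.71% for higher values and in 2.87% for lower ones. The 95% interval of the difference held 0 in 39 of 40, and in 30 of 40 it lay within 0.5 of 0. For these 30 a difference of more than 0.5 between the diets was outside the interval, and for the other 10 it was not.

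**Figure D2:**
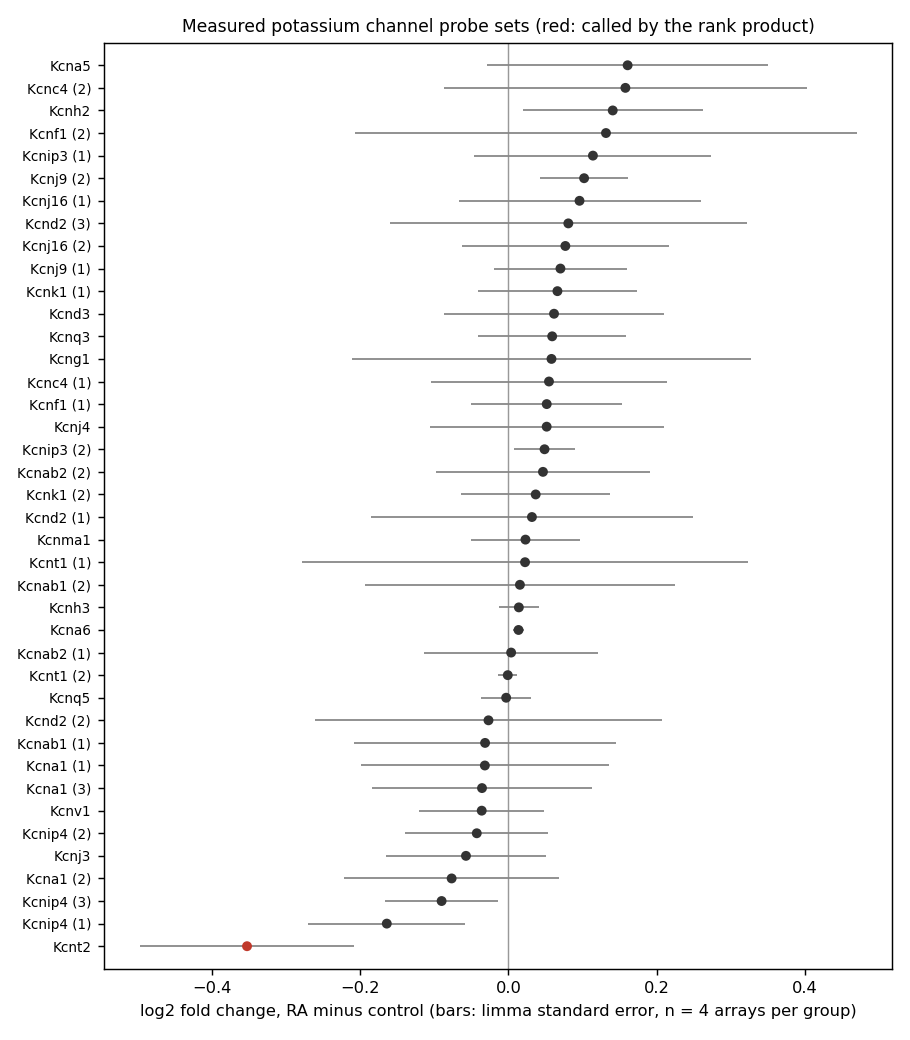
Log2 fold change, RA minus control (x axis), of the 40 measured potassium channel probe sets (y axis), with the limma standard error as a bar (n = 4 arrays per group). A number in brackets tells the probe sets of 1 gene apart, and only Kcnt2 (red, at -0.35) was called by the rank product.

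Kcnt2 encodes a channel subunit that opens with intracellular sodium. Its only probe set here (1459971_at) had log2 values of 6.58, 7.15, 7.18 and 6.92 in control 1 to control 4 and of 6.69, 6.46, 6.56 and 6.70 in RA 1 to RA 4. Of the 4 control arrays, 3 lay above every RA array, and control 1 lay among the RA arrays. The means were 6.96 ± 0.28 (SD, n = 4) and 6.60 ± 0.12 (SD, n = 4), a log2 fold change of -0.35 with a standard error of 0.14 and a 95% interval of -0.70 to -0.0051, or 0.783-fold. The rank product called it lower, with a proportion of false positives of 0.00417. The limma adjusted p was 0.490, and the exact permutation test of the means gave a 2-sided p of 0.0857, or 0.708 after adjustment over all measured probe sets. With 4 arrays against 4 the smallest p this test allows is 0.0286. The call rested on ranking Kcnt2 among nearly constant probe sets: ranked among the 3758 measured ones alone, where 0.452% were called lower, its proportion was 0.389. It was also lost without control 2 (0.0844), without control 3 (0.0646) and without control 4 (0.0509), while the log2 fold change stayed between -0.48 and -0.28 whichever array was left out. In these bulk samples a smaller number of cells that express a gene and less RNA per cell cannot be told apart.

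The related sodium-activated subunit Kcnt1 was not called. Its first probe set (1439486_at) had values of 7.07, 6.18, 6.05 and 6.73 in the control arrays and of 6.56, 7.09, 6.27 and 6.20 in the RA arrays. The groups overlapped over most of their range, with a log2 fold change of 0.022 and a standard error of 0.30. Its second (1458428_at) ran only from 6.08 to 6.13, with a log2 fold change of -0.00093.

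Kcnip4, which encodes a calcium-binding auxiliary subunit of the Kcnd channels, was not called. Its probe set 1437631_at had values of 7.74, 8.17, 8.01 and 8.11 in the control arrays and of 7.91, 7.71, 7.80 and 7.95 in the RA arrays. As for Kcnt2, control 1 lay among the RA arrays and the other 3 control arrays lay above them all. The log2 fold change was -0.16 with a standard error of 0.11, and the proportion of false positives was 0.0540. Ranked among the measured probe sets alone it was 1.085 (the estimate can exceed 1), and with the filter on low means, the replicate block and the rank sum it was 0.139, 0.172 and 0.440. It was under the threshold without control 1 (0.0247), without RA 1 (0.0462) and without RA 4 (0.0395), and was 0.411 without control 2. The other probe sets of Kcnip4 had smaller differences, -0.090 (standard error 0.076) for 1451840_at and -0.043 (standard error 0.096) for 1450370_a_at. The values of 1451840_at were 7.29, 7.61, 7.37 and 7.46 in the control arrays and 7.34, 7.24, 7.37 and 7.42 in the RA arrays. Those of 1450370_a_at were 7.30, 7.63, 7.36 and 7.46 in the control arrays and 7.43, 7.19, 7.51 and 7.45 in the RA arrays. The groups overlapped in both, with RA 2 and control 1 lowest.

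**Figure D3:**
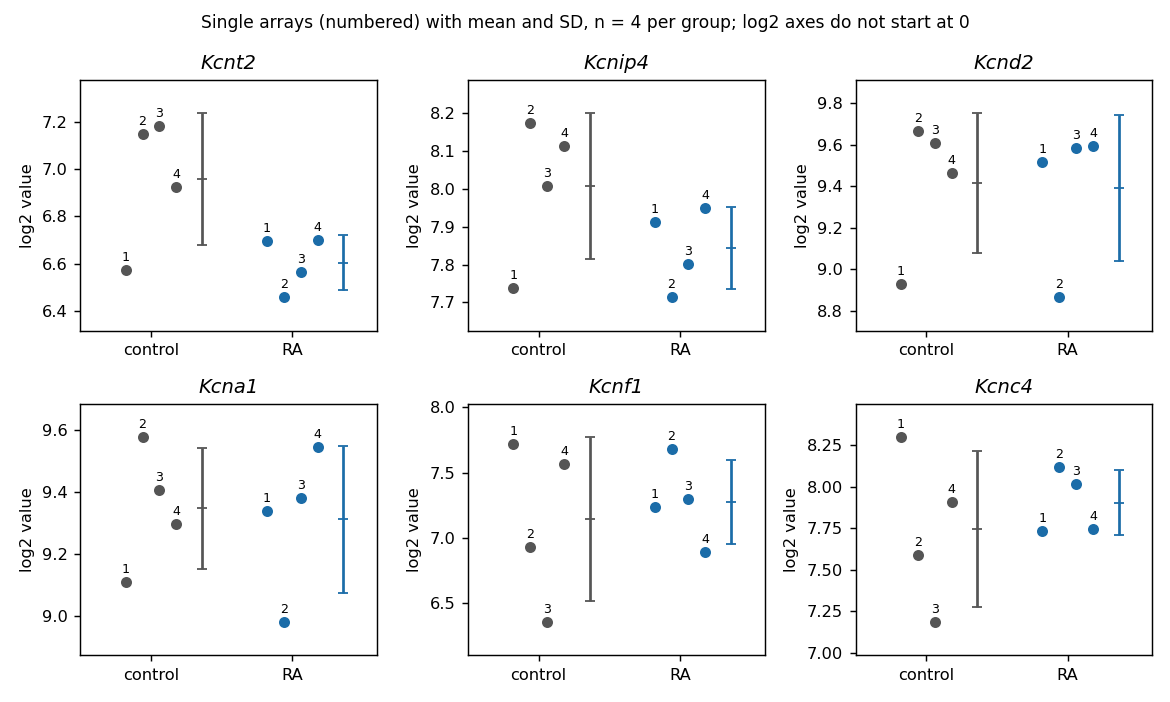
Log2 value (y axes, which do not start at 0) of 6 probe sets in each array, numbered by replicate, for the control and RA groups (x axis), with the mean and SD at the side (n = 4 per group). Probe sets are 1459971_at (Kcnt2), 1437631_at (Kcnip4), 1422835_at (Kcnd2), 1455785_at (Kcna1), 1454768_at (Kcnf1) and 1425090_s_at (Kcnc4); control 1 and RA 2 lie together at the low end for Kcnd2 and Kcna1 and at the high end for Kcnf1 and Kcnc4.

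Kcnip3, a relative of Kcnip4 whose product also acts as a calcium-dependent transcription factor, leaned the other way. Its probe set 1418544_at had values of 7.62, 7.25, 6.85 and 7.30 in the control arrays and of 7.33, 7.43, 7.48 and 7.24 in the RA arrays. The RA values all fell inside the control range, and the log2 fold change was 0.11 with a standard error of 0.16. The second probe set (1449129_a_at) gave 0.049 with a standard error of 0.041.

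The Kcnd genes, which carry the dendritic A-type current, gave small differences with wide errors. Kcnd2 was measured by 3 probe sets, with log2 fold changes of 0.032, -0.027 and 0.081 and standard errors of 0.22, 0.23 and 0.24. In 1422835_at the values were 8.93, 9.67, 9.61 and 9.46 in the control arrays and 9.52, 8.86, 9.58 and 9.59 in the RA arrays. In each group 1 array, control 1 or RA 2, lay far below the others, and the remaining values of the groups overlapped. Kcnd3 had a log2 fold change of 0.061 with a standard error of 0.15.

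Among the Kcna genes, Kcna1 encodes a subunit found along axons that opens at low voltage. Its 3 measured probe sets had log2 fold changes of -0.032, -0.077 and -0.036, with standard errors of 0.17, 0.14 and 0.15. The probe set 1437230_at had values of 8.13, 8.59, 8.58 and 8.50 in the control arrays and of 8.49, 8.07, 8.40 and 8.54 in the RA arrays. Both groups spanned nearly the same range, again with control 1 and RA 2 lowest. Kcna5 had the highest log2 fold change of all 40, at 0.16 with a standard error of 0.19. Its values were 5.96, 5.35, 5.19 and 5.74 in the control arrays and 5.78, 5.95, 5.61 and 5.55 in the RA arrays, and the RA range lay inside the control range. For Kcna6 the difference was 0.014 (standard error 0.0076), with all arrays between 7.24 and 7.28. The cytoplasmic subunits that bind Kcna channels were also near 0, at -0.032 and 0.015 for the probe sets of Kcnab1 and at 0.0036 and 0.047 for those of Kcnab2.

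Kcnc4 encodes a fast-inactivating channel of the Kcnc family. Its probe set 1425090_s_at had values of 8.30, 7.59, 7.19 and 7.91 in the control arrays and of 7.73, 8.12, 8.02 and 7.74 in the RA arrays. The RA arrays all lay within the control range, and the log2 fold change was 0.16 with a standard error of 0.24. The second probe set (1425089_at) gave 0.055 with a standard error of 0.16.

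Kcnf1, Kcng1 and Kcnv1 encode silent subunits, which form no channel alone and alter Kcnb channels when they join them. Kcnf1 had the widest range over the arrays of any measured potassium channel probe set, 1.36 on the log2 scale. Its probe set 1454768_at had values of 7.72, 6.93, 6.36 and 7.57 in the control arrays and of 7.23, 7.68, 7.30 and 6.89 in the RA arrays. The spread lay inside each group, and the log2 fold change was 0.13 with a standard error of 0.34. For Kcng1 it was 0.058 (standard error 0.27) and for Kcnv1 -0.036 (standard error 0.085).

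Of the Kcnh genes, Kcnh2 encodes a channel that closes slowly after an action potential. Its values were 6.64, 6.14, 6.54 and 6.34 in the control arrays and 6.53, 6.69, 6.40 and 6.60 in the RA arrays. The groups overlapped, with a log2 fold change of 0.14 and a standard error of 0.12. Kcnh3, a related channel of forebrain neurons, gave 0.014 (standard error 0.027).

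The M-current subunits Kcnq3 and Kcnq5 had log2 fold changes of 0.059 (standard error 0.099) and -0.0031 (standard error 0.034). Kcnma1, the pore of the large-conductance calcium-activated channel, had 0.023 (standard error 0.073). Each of these 3 differences was smaller than its standard error.

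Among the inward rectifiers, Kcnj3 and Kcnj9 encode subunits of the channels that G proteins open. Kcnj9 probe set 1450712_at had values of 7.14, 7.16, 7.08 and 7.29 in the control arrays and of 7.32, 7.19, 7.37 and 7.19 in the RA arrays. Of the control arrays, 3 lay below every RA array, and control 4 lay among them. The log2 fold change was 0.10 with a standard error of 0.059, and the proportion of false positives was 0.0964. The second Kcnj9 probe set gave 0.070 (standard error 0.090). Kcnj3 had values of 7.48, 7.78, 7.68 and 7.72 in the control arrays and of 7.65, 7.35, 7.78 and 7.66 in the RA arrays, which overlapped, and its log2 fold change was -0.057 (standard error 0.11). The 2 probe sets of Kcnj16, which encodes a partner subunit of the glial rectifier Kcnj10, gave 0.096 and 0.077, and Kcnj4, a strong rectifier of neurons, gave 0.052. The leak channel Kcnk1 gave 0.066 and 0.037. Among the 12 genes with several measured probe sets, the sign of the difference varied between probe sets in 3, Kcnab1, Kcnd2 and Kcnt1.

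The SD within groups was larger than the difference between the diets in 36 of 40 probe sets, and the spread between arrays had a shape of its own. The median range of a measured potassium channel probe set over the 8 arrays was 0.53 on the log2 scale, or 1.45-fold. Control 1 and RA 2, which come from different diets, were the 2 lowest arrays in 17 of 40 probe sets (42.5%), and across all measured probe sets they were so in 24.1%. The 17 probe sets belong to 8 genes: Kcna1, Kcnab1, Kcnab2, Kcnd2, Kcnip4, Kcnj3, Kcnk1 and Kcnq3. In another 14 of 40 (35.0%, against 19.4% of all measured probe sets) the same arrays were the 2 highest. These belong to 10 genes: Kcna5, Kcnc4, Kcnd3, Kcnf1, Kcng1, Kcnh2, Kcnh3, Kcnj9, Kcnj16 and Kcnt1. All measured probe sets of Kcna1, Kcnab1, Kcnab2, Kcnd2, Kcnip4 and Kcnk1 fell in the first set and all those of Kcnc4, Kcnf1, Kcnj16 and Kcnt1 in the second, and these are 10 of the 12 genes with several measured probe sets. Of the other 2, Kcnj9 had control 1 and RA 2 highest in 1428602_at (7.17 and 7.18), while in 1450712_at they (7.14 and 7.19) were not at an end together, and Kcnip3 belonged to neither set. These sets were described after the values were seen and carry no test. Control 3 was the lowest array in 17 of 40 (42.5%, against 33.8% overall). RA 1 was neither lowest nor highest in any, and over all measured probe sets it was lowest in only 1.49% and highest in 3.43%.

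**Figure D4:**
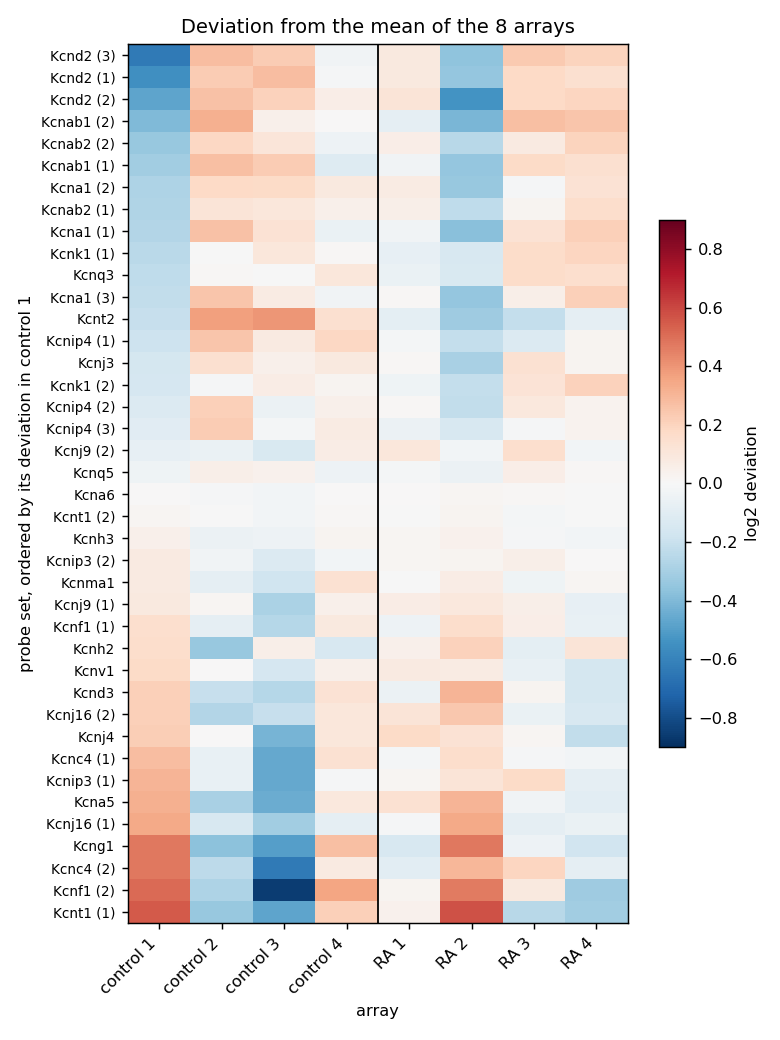
Log2 deviation from the mean of the 8 arrays (colour, blue below and red above) for each measured potassium channel probe set (y axis, ordered by control 1) in each array (x axis, a line parts the diets). Columns control 1 and RA 2 share their direction in most probe sets, low for Kcnd2, Kcnab1 and Kcna1 and high for Kcng1, Kcnf1 and Kcnt1.

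In the low set, Kcnab1 probe set 1454043_a_at stood at 7.21 in control 1 and 7.21 in RA 2, while the other arrays ran from 7.53 to 7.93. Kcnd2 probe set 1450773_at stood at 7.96 and 8.23 in these arrays and between 8.57 and 8.87 in the others. In the high set, Kcng1 stood at 7.60 in control 1 and 7.60 in RA 2, with 6.63 to 7.40 in the others, and Kcnt1 probe set 1439486_at at 7.07 and 7.09, with 6.05 to 6.73 in the others. These arrays stand apart here because the sets were chosen by them. With control 1 and RA 2 both left out, the SD within groups fell in 36 of 40 probe sets, and its median went from 0.210 to 0.113. Part of this fall is built in, since these arrays were picked for lying at the ends of many of these probe sets. No such value for all measured probe sets stands beside it.

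Some marker lists of hippocampal cells were also low in these arrays, and others were not. All 6 dentate granule neuron markers were measured, and their mean deviation from the mean of the 8 arrays was -0.59 in control 1 and -0.61 in RA 2, with 0.12 to 0.38 in the other control arrays and 0.094 to 0.20 in the other RA arrays. Of the 8 pyramidal neuron markers 6 were measured (Slc17a7 and Grik4 were nearly constant), with -0.28 in control 1, -0.41 in RA 2, -0.025 to 0.24 in the other control arrays and 0.042 to 0.14 in the other RA arrays. Control 1 and RA 2 were the 2 lowest arrays in 4 of these 6 dentate and 4 of these 6 pyramidal markers, while C1ql2, Calb1 and Wfs1 were highest in control 1. The measured interneuron markers (4 of 8) stood at -0.070 in control 1 and 0.15 in RA 2, and the measured general neuron markers (4 of 6) at 0.050 and -0.048, with these arrays the 2 lowest in 1 gene of each list. All 6 oligodendrocyte markers with a probe set were measured, at -0.67 in control 1 and -0.85 in RA 2, and control 1 and RA 2 were the 2 lowest arrays in all 6. Striatal markers, of which 3 of 8 were measured (Drd1, Penk and Pde10a), stood at 0.60 in control 1 and 0.16 in RA 2, with -0.36 to 0.25 in the other control arrays and -0.22 to -0.039 in the other RA arrays. Drd1 and Penk were highest in control 1, at 6.93 and 9.61. Pde10a was lowest in RA 2 (6.71), and control 1 (7.14) was its lowest control array. Between the diets the dentate markers differed by -0.11 and the pyramidal markers by -0.073, with 2 and 1 genes called lower. These were Dsp, Lct and Neurod6, with log2 fold changes of -0.17, -0.19 and -0.30 and larger standard errors of 0.59, 0.55 and 0.47. Ranked among the measured probe sets alone, Dsp, Lct and Neurod6 had proportions of false positives of 0.335, 0.473 and 0.265. Also called lower were the striatal marker Pde10a (log2 fold change -0.42, standard error 0.099) and the general neuron marker Snap25 (-0.21, standard error 0.054), with every RA array below every control array in both. Of all measured probe sets 6.81% were called lower and 2.87% had the groups apart in this direction. For Pde10a and Snap25 the limma adjusted p was 0.33 and 0.34. Ranked among the measured probe sets alone, their proportions of false positives were 0.164 and 0.956. The other measured markers of these lists were not called. Their log2 fold changes were 0.12 (Drd1), -0.031 (Penk), -0.11 (Rbfox3), 0.085 (Stmn2) and 0.11 (Tubb3). The part of these cell types in the potassium channel values was not tested.

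Choroid plexus, the excluded genes Kcne2 and Kcnj13 among its markers, followed another order of arrays. Its 11 measured markers, all of which were called higher, had mean deviations of 1.63 in control 3 and 0.86 and 1.36 in RA 3 and RA 4, and below 0 in the other 5 arrays. Control 3, RA 3 and RA 4 were the 3 highest arrays in 2 of the 40 potassium channel probe sets and the 3 lowest in 1. This was not counted over all measured probe sets, so whether these counts are usual cannot be said. Of the measured markers of the thalamus, meninges, and endothelium and pericytes, 4 of 5, 6 of 8 and 2 of 4 were called higher, and of those of astrocytes, microglia and interneurons none was called. Of all measured probe sets 10.9% were called higher, and 0.106% when only the measured ones were ranked. In that ranking Ttr (0.0325) was the only marker of these lists that stayed under the threshold. The part of these tissues in the potassium channel values was not tested.

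**Figure D5:**
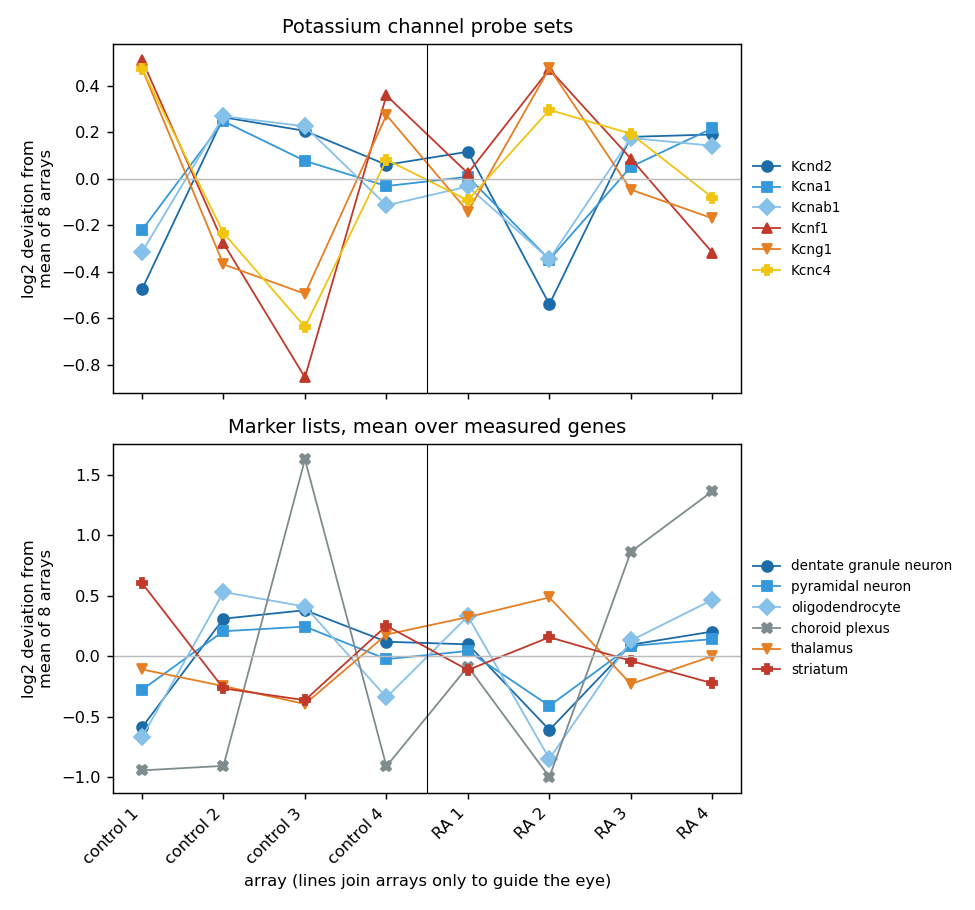
Log2 deviation from the mean of the 8 arrays (y axes) in each array (x axis) for 6 potassium channel genes, each by the probe set with the highest mean (top), and for the mean of the measured genes of 6 marker lists (bottom). Control 1 and RA 2 lie low for Kcnd2, Kcna1 and Kcnab1 and for the dentate, pyramidal and oligodendrocyte markers, and high for Kcnf1, Kcng1 and Kcnc4; lines only join the arrays of 1 series.

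The higher calls turned on control 1. The lower calls changed with most arrays, at 0 without control 2, 3 or 4 and 2 without control 1, RA 1 or RA 4. The share of all measured probe sets called lower moved too, from 6.81% to 3.38%, 3.78% and 4.15% without control 2, 3 and 4. It was 7.34% without RA 1 and 8.4% without RA 4. Without control 1, 8 potassium channel probe sets were called higher (Kcna5, Kcnc4, Kcnf1, Kcng1, Kcnh2, Kcnip3, Kcnj16 and Kcnt1) and 2 lower (Kcnip4 and Kcnt2), while the higher calls over all probe sets went from 411 to 949, or 25.25% of the measured ones, with 7.16% lower. Of these 8 genes, all but Kcnip3 had control 1 and RA 2 as their 2 highest arrays in the called probe set. With RA 2 left out as well, none was called higher and the same 2 were called lower, and over all probe sets 37 were higher and 237 lower. The groups no longer overlapped then in Kcnip4 and Kcnt2, lower in the RA group, nor in a probe set each of Kcnj16 and Kcnip3, higher in it, which is 2 of 40 in each direction, against 9.02% higher and 5.56% lower of all measured probe sets. Leaving both out was chosen after the values were seen.

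The sequences before the start of 5 genes are shown because these genes carry the patterns above: Kcnt2 was called, Kcnd2 and Kcnab1 were low and Kcnf1 and Kcnc4 high in control 1 and RA 2. Each is the 250 bases upstream of the start in the RefSeq promoter table (GRCm38.p6), 5′ to 3′ on the strand of the gene, with GC boxes (GGGCGG or its reverse complement CCGCCC) in capitals. They lie at chr1:140245468-140245717 (plus strand) for Kcnt2, chr6:21215096-21215345 (plus) for Kcnd2, chr3:64948962-64949211 (plus, the first of 3 starts) for Kcnab1, chr12:17176889-17177138 (minus) for Kcnf1 and chr3:107458899-107459148 (minus) for Kcnc4.
Kcnt2: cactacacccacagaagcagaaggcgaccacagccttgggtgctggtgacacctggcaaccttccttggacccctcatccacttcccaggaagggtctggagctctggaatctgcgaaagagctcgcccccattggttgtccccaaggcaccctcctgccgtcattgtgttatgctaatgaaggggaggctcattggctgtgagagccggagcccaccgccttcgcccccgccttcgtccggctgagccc
Kcnd2: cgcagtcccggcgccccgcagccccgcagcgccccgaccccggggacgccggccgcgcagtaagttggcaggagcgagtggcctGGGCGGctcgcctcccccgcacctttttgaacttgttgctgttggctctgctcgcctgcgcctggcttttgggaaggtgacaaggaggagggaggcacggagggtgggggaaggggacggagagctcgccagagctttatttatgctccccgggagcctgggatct
Kcnab1: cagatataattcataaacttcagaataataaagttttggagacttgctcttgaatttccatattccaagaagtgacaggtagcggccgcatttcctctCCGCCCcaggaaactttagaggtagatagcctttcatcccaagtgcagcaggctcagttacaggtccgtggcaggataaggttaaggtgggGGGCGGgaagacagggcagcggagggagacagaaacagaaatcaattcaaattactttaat
Kcnf1: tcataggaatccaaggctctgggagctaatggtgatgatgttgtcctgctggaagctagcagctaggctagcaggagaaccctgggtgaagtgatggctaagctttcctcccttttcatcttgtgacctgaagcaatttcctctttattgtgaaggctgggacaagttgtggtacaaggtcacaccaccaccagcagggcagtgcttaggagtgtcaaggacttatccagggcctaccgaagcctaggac
Kcnc4: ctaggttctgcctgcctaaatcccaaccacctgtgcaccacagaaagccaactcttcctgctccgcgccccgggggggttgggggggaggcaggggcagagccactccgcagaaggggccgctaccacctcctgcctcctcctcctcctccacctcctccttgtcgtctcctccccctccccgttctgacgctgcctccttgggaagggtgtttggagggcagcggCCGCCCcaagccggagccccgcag

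The windows shown held 1 GC box in Kcnd2 and 2 in Kcnab1, of the low set. They held none in Kcnf1 and 1 in Kcnc4, of the high set, and none in Kcnt2. So few genes cannot speak for the sets. The share of G and C was 61.6% in Kcnt2, 68.8% in Kcnd2, 45.2% in Kcnab1, 51.2% in Kcnf1 and 68.0% in Kcnc4. Of the 81 potassium channel genes, 61 matched the promoter table. A GC box lay in 31 of these 61 windows (50.8%), against 32.9% of the windows of all 27025 genes, and their median share of G and C was 60.0%, against 52.0%. On either strand, the letters TATAAA lay in 1 of 61 windows (1.64%, against 13.0% of all), CACGTG in 3 (4.92%, against 6.05%), TGACG in 11 (18.03%, against 17.86%) and TGACGTCA, which contains TGACG, in none (against 1.62%). These are matches of letters, not binding sites.

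Genes whose products work with potassium channels were read from a list of 37. It held accessory proteins such as Dpp6 and Dpp10, which join Kcnd channels, and scaffolds such as Dlg4. Subunits of the G proteins that act on Kcnj3 and Kcnj9, and the Hcn channels, were also on it. Of the 37 genes, 31 had a probe set and 9 a measured one, 12 probe sets in all. None was called in either direction, in none were the groups apart, and 10 of 12 had a higher RA mean, with a median log2 fold change of 0.11. Over all measured probe sets 10.9% were called higher and 6.81% lower, and the groups were apart in 2.71% and 2.87%. The RA mean was the higher one in 73.1% of them, and their median was 0.069. The 3 largest changes in size were those of Dpp10 probe set 1436087_at (0.17, standard error 0.39), Dlg4 (0.16, standard error 0.058) and Gnao1 (0.14, standard error 0.058), and the limma adjusted p was 0.908, 0.454 and 0.488.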

How the data were processed

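Hippocampal RNA of 4 control and 4 RA samples was hybridised to 8 Affymetrix mouse genome arrays, and groups followed the sample labels. The authors made the deposited log2 values with FARMS, 1 per probe set and array, with a scaling between arrays not given in the sources used here. The deposited values were used without further scaling, after 64 control probe sets were left out. FARMS draws probe sets without shared signal to a constant, so only those with an SD above 0.01 were read. Gene names came from the annotation of the platform, brought up to date with GRCm38.p6.

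The rank product of the study's methods was run over all probe sets in Python 3.11.15 (numpy 2.4.6, pandas 2.3.3), with 100 permutations and a threshold of 0.05. Fold changes, standard errors, 95% intervals and Benjamini-Hochberg adjusted p-values came from limma 3.58.1 in R 4.3.3. Both were tested on simulated data, in which each value was drawn independently. Arrays did not deviate together there as control 1 and RA 2 do here, so the simulation does not cover that. Single probe sets were also compared by an exact permutation test over 70 assignments. Described array by array were the called probe sets and those with the 6 highest and 6 lowest fold changes, and Kcnd2, Kcnt1, Kcnab1 and Kcng1 were added after their values were seen. The members, partner genes and marker lists were chosen with earlier results of these data known. Alternatives were quantile normalization, subtraction of array medians, filters on SD and mean, 1 probe set per gene, a replicate block, limma or the rank sum as the test, a stricter threshold of 0.01, trend and robust moderation, array weights and leaving out arrays.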

Additional observations from a re-analysis of the deposited data

Results flagged for a closer look

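In 3 of the 80 groups of 4 arrays tested, 1 array lay far from the other 3 by Dixon's criterion, and chance alone gives about 4. All 3 were RA 2 in the RA group. Kcnc4 (1425089_at) was 6.97 there, with 6.79 to 6.81 in the other RA arrays, Kcnd2 (1422835_at) was 8.86, with 9.52 to 9.59 in the others, and Kcnj16 (1435094_at) was 6.73, with 6.31 to 6.38 in the others.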

How the results depend on the processing

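The count of potassium channel probe sets called lower (1) went to 0 when only probe sets with an SD above 0.01 were ranked, with the rank sum and with limma, went to 2 with both control 1 and RA 2 left out, and ran from 0 to 2 when single arrays were left out. The count called higher (0) ran from 0 to 8 when single arrays were left out, and was above 0 only without control 1. With single arrays left out, 3.38% to 8.4% of all measured probe sets were called lower and 0.506% to 25.25% higher. Measured probe sets with groups apart ran from 0 to 2 in each direction when single arrays were left out, and were 2 higher and 2 lower of 40 without control 1 and RA 2, against 9.02% and 5.56% of all measured probe sets (7.24% and 5.35% without control 1 alone). limma called 102 probe sets, all unmeasured, after quantile normalization and 125 after subtraction of array medians, 124 of them unmeasured. These scalings moved the median log2 fold change of all probe sets to -0.0026 and -0.0038, and limma then called 28543 and 41443 of all probe sets, since nearly constant values shift together. The remaining one was Kcnt2, with an adjusted p of 0.0455, against 0.0629 with quantile normalization and 0.490 as deposited. The median log2 fold change ran from -0.0032 (without control 3) to 0.049 (without control 4). The sign of the difference turned in 1 of 40 probe sets under each scaling, in 15 without control 3, in 13 without RA 2 in 10 each without control 1 and control 2, and in 1 to 7 without any other array. The deviations of same-numbered arrays had correlations of -0.12, -0.33, 0.45 and -0.39, and those of control 1 and RA 2 had 0.74. With 4 arrays per group and such shared deviations, these values cannot tell whether the numbers pair the samples. With the replicate block 1 probe set, Kcnt2, was called lower (0.0312) and none higher. The other alternatives changed no count of calls. Where a cause is not given by the setting itself, it was not tested.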
